A study of Mus musculus with 4 samples.

Results

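The B cell and plasma cell genes read here were Ighm, Ms4a1, Cd79a, Cd79b, Pax5, Jchain, Cd22, Blk and Mzb1, 9 of the 30702 genes measured on mouse whole-transcript arrays. They were taken by name: an array feature was used where the platform annotation gave it 1 gene symbol and that symbol was a listed gene, and each of the 9 had 1 such feature. RNA came from cells sorted from the small intestine of 8-week-old Lgr5GFP-CreERT2 mice, in which GFP and the tamoxifen-inducible recombinase CreERT2 are driven from Lgr5, a gene of crypt base stem cells. All 4 groups carry that allele, and each group is 1 array. The first group is GFP-negative cells of wild-type genotype, labelled non-ISCs, and the second is GFP-positive intestinal stem cells (ISCs) of wild-type genotype. The third is GFP-positive stem cells with the genotype LncGata6 mut, a mutation of a long noncoding RNA transcribed beside Gata6. The fourth is GFP-positive stem cells of Ehf-/- mice, which lack an ETS transcription factor of epithelia. Below, the arrays are called non-ISC, wild-type ISC, LncGata6 mut and Ehf-/-. The labels do not say which mutation LncGata6 mut is, or whether animals were pooled. Because the collection protocol speaks of sorting ILCreg, an innate lymphoid population, it is uncertain which gate was used. With 1 array a group there is no replicate, every difference below is between 2 arrays, and no difference has an error or a p-value.

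B cells recognise antigen through a membrane immunoglobulin, IgM on naive cells, whose signal is passed on by the CD79A and CD79B chains. CD20, CD22 and the kinase BLK sit at or near that receptor, and PAX5 is the transcription factor that holds cells in the B lineage. A B cell that becomes a plasma cell turns down PAX5, CD20 and CD22 and turns on immunoglobulin secretion. J chain links immunoglobulin monomers into the polymeric IgA and IgM that gut plasma cells release. MZB1 is an endoplasmic reticulum protein that helps assemble these immunoglobulins. Since plasma cells can release IgM, Ighm is not a gene of B cells alone. In the intestine, plasma cells lie in the lamina propria under the epithelium, and epithelial cells carry polymeric IgA into the lumen with the receptor encoded by Pigr.

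The start-site sequences of a receptor chain, an inhibitory coreceptor and a secretory gene are shown because the receptor genes and Jchain gave different patterns over the arrays. They are the 250 bases before the annotated start in RefSeq, build GRCm38.p6, written 5′ to 3′ on the strand of the gene. Capitals mark matches, on either strand, to the octamer ATGCAAAT, which OCT factors bind, to the EBF core CCCNNGGG, or to the PU.1 core GAGGAA. Cd79a lies at chr7:24897247-24897496 on the plus strand, Cd22 at chr7:30879029-30879278 on the minus strand, and Jchain at chr5:88527898-88528147 on the minus strand.
Cd79a: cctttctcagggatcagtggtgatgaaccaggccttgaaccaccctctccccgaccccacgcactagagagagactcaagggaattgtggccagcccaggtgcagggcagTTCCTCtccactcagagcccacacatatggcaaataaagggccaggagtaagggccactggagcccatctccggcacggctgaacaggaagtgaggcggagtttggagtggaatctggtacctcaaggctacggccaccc
Cd22: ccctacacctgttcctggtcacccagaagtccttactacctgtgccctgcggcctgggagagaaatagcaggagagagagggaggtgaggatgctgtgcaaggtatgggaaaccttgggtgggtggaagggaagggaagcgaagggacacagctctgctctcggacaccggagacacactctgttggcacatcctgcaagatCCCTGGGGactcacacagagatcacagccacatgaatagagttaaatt
Jchain: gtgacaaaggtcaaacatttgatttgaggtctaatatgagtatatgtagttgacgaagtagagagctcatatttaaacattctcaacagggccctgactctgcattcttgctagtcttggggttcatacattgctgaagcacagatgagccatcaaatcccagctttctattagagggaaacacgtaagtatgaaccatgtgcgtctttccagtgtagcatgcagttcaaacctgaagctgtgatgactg
The Cd79a window held 1 PU.1 core, on the opposite strand, 140 bases before the start. The Cd22 window held 1 EBF core, 48 bases before the start. No match was found in the Jchain window, nor in that of Pax5. Promoter sequences were available here for these 4 of the 9 genes. Among all 32851 promoter windows of the same length, 23.3% held a PU.1 core, 11.8% an EBF core and 1.60% the octamer, and no window of these 4 genes held matches to more than 1 motif. A match describes letters and is not evidence of binding.

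Values are on a log2 scale, on which a step of 1 is a 2-fold difference, and each is compared only with the value of the same feature on another array. The control limit of an array is the 95th percentile of its 5222 negative control features, and it was 5.16 on the non-ISC array, 5.62 on the wild-type ISC array, 5.31 on the LncGata6 mut array and 5.19 on the Ehf-/- array. To be called higher or lower, a gene had to differ by at least 1, with a brighter value no lower than the 75th percentile over named features of that array. This percentile was 5.26, 4.97, 4.93 and 4.60 in the same order. A fold is brighter over dimmer, and is given as "at least" where the dimmer value lay under its control limit and was replaced by that limit. No fold is given where the 2 values were both under their limits or where such a bound was below 1.

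The labels were read against marker genes. Lgr5 was at 9.41 on the wild-type ISC array and at 3.03, 3.03 and 2.79, under the control limits, on the non-ISC, LncGata6 mut and Ehf-/- arrays. In the same order of arrays as the limits above, Ehf was at 3.75, 6.99, 5.09 and 3.03. Gata6os, taken here for LncGata6, was at 3.14, 4.92, 4.37 and 4.04, under the limit on each. That Gata6os is the RNA the labels call LncGata6 was not checked. Where the Ehf and Gata6os features lie relative to the mutations is not known here, so they do not check the labels. On the Ehf-/- array 0 of 14 epithelial markers reached the control limit, against 12 on the non-ISC, 14 on the wild-type ISC and 13 on the LncGata6 mut array. All 11 markers of hepatocytes and kidney tubules lay above the limit on the non-ISC array, and 0 did on the other arrays. Arrays are called by their labels throughout, and they differed in markers of cell types as well as in genotype. In such bulk samples, fewer cells of a type and less RNA per cell cannot be told apart.

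Apart from the secretory gene Jchain, the genes were all brightest on the array labelled Ehf-/-, the secretory gene Mzb1 included. Jchain was brightest on the wild-type ISC array, and Mzb1 reached the control limit on both the wild-type ISC and the Ehf-/- arrays. Of the 9 genes, 8 had their highest value on the Ehf-/- array, and Jchain had its highest on the wild-type ISC array. The lowest value fell on the LncGata6 mut array for 5 genes, on the wild-type ISC array for 3 and on the non-ISC array for 1. Except for those of Ighm and Jchain, these lowest values lay under the control limits, so which array was lowest is uncertain. The highest value of Pax5 was also under its limit. At or above the control limit were 4 of the 9 on the non-ISC array, 3 on the wild-type ISC array, 2 on the LncGata6 mut array and 8 on the Ehf-/- array. The median over the 9 genes was 4.91, 4.68, 4.31 and 6.59 in that order.

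**Figure D1:**
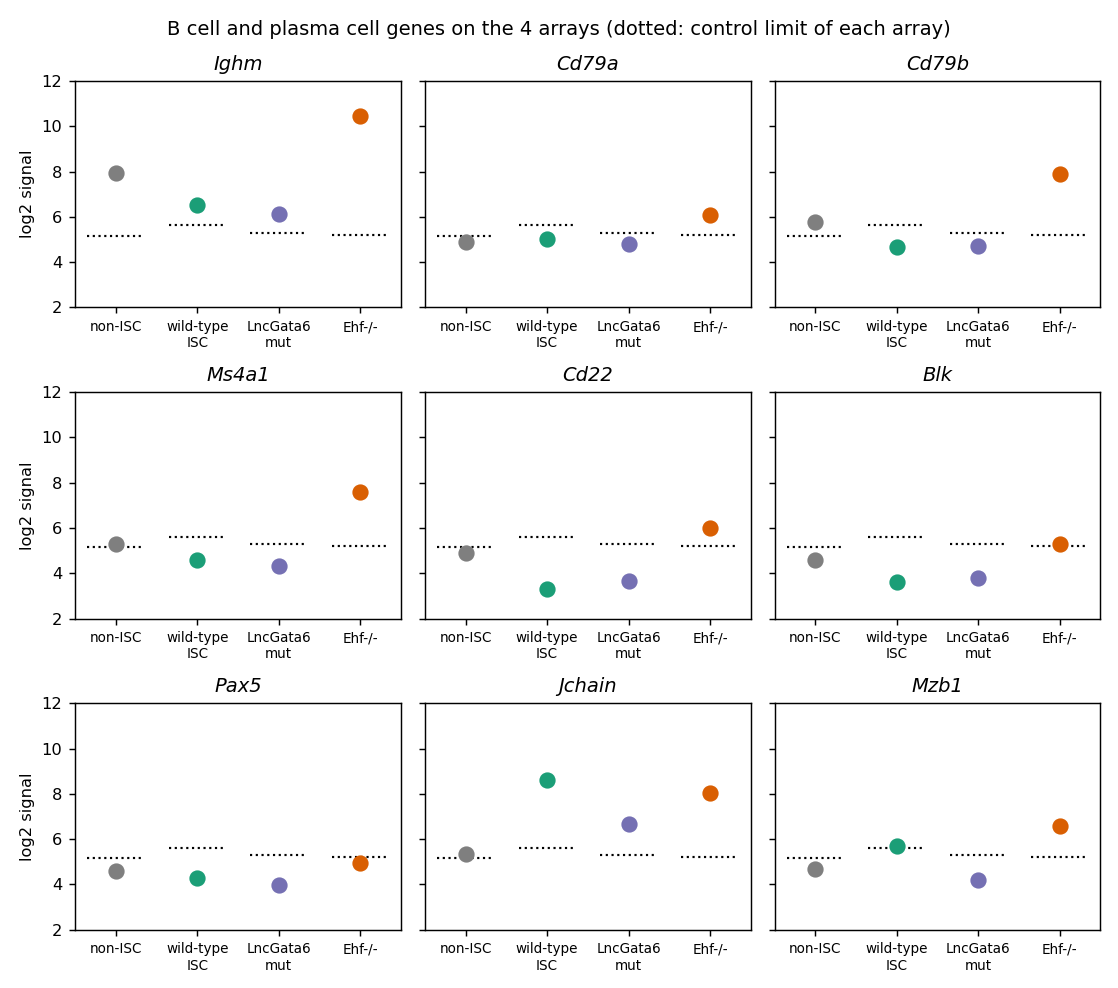
Each panel shows 1 gene, with log2 signal on the vertical axis and the 4 arrays along the horizontal axis; a point is the value of 1 array and the dotted line is that array's control limit. Ighm lies at 10.48 on the Ehf-/- array and between 6.11 and 7.93 on the others, Jchain is brightest on the wild-type ISC array at 8.61, and Pax5 lies under the dotted line on all 4.

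Of the antigen receptor, Ighm, the heavy chain of IgM, was read above the control limit on every array. It stood at 7.93 on the non-ISC array, 6.54 on the wild-type ISC array, 6.11 on the LncGata6 mut array and 10.48 on the Ehf-/- array. The Ehf-/- value stands apart from the other 3: it was 15.4-fold above the wild-type ISC array, 20.6-fold above the LncGata6 mut array and 5.86-fold above the non-ISC array. The wild-type ISC array was in turn 2.62-fold below the non-ISC array, and the LncGata6 mut array 3.52-fold below it. The difference of -0.43 between the LncGata6 mut and wild-type ISC arrays did not reach 1.

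The signalling chains of the receptor followed the same order at the top. Cd79b was at 5.79 on the non-ISC array, 4.68 on the wild-type ISC array, 4.71 on the LncGata6 mut array and 7.88 on the Ehf-/- array. Both middle values lay under their control limits, and the Ehf-/- array was at least 4.77-fold above the wild-type ISC array, at least 5.93-fold above the LncGata6 mut array and 4.26-fold above the non-ISC array. Cd79b was also called lower than on the non-ISC array on the wild-type ISC array, by at least 1.12-fold, and on the LncGata6 mut array, by at least 1.39-fold. These calls rest on differences of -1.11 and -1.07, of which the first was lost under 2 of 3 other scalings of the arrays and the second under all 3.

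Cd79a, its partner chain, varied less. It read 4.88, 5.05, 4.81 and 6.09 on the non-ISC, wild-type ISC, LncGata6 mut and Ehf-/- arrays, and only the Ehf-/- value lay above its control limit. That value was at least 1.38-fold above the wild-type ISC array, on a difference of 1.04 that barely passes the limit of 1, and at least 1.71-fold above the LncGata6 mut array.

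Among the coreceptors and surface proteins, Ms4a1 encodes CD20, a membrane protein of mature B cells that plasma cells lack. It was at 5.30 on the non-ISC array, 4.61 on the wild-type ISC array, 4.31 on the LncGata6 mut array and 7.59 on the Ehf-/- array. The wild-type ISC and LncGata6 mut values were under the control limits, and the Ehf-/- value was at least 3.91-fold and at least 4.86-fold above them, and 4.91-fold above the non-ISC array. Cd22, an inhibitory lectin of the receptor complex whose promoter is shown above, read 4.91, 3.32, 3.66 and 6.01 in the order of arrays used before. It exceeded a control limit only on the Ehf-/- array, which was at least 1.31-fold above the wild-type ISC array and at least 1.81-fold above the non-ISC array. Cd22 differed by -1.59 between the non-ISC and wild-type ISC arrays, but the brighter value was under the 75th percentile and the pair was not called.

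Blk, a Src-family kinase that acts just below the receptor, read 4.58, 3.64, 3.78 and 5.28. It passed its control limit only on the Ehf-/- array, and only just. It was called higher than on the wild-type ISC array on a difference of 1.64, with no fold. Pax5 read 4.61, 4.27, 3.96 and 4.95, under the control limit on all 4 arrays. Its differences among the arrays reached at most 0.99 and none was called.

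Of the secretory genes, Jchain was brightest on the wild-type ISC array and dimmest on the non-ISC array, unlike any other of the 9. It was at 5.35 on the non-ISC array, 8.61 on the wild-type ISC array, 6.69 on the LncGata6 mut array and 8.02 on the Ehf-/- array, above the control limit on each. It was thus 9.59-fold higher on the wild-type ISC than on the non-ISC array, 3.80-fold lower on the LncGata6 mut than on the wild-type ISC array, and 6.34-fold higher on the Ehf-/- than on the non-ISC array. Between the wild-type ISC and Ehf-/- arrays it differed by 1.51-fold, the wild-type ISC array being brighter, and was not called.

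Mzb1 was at 4.69 on the non-ISC array, 5.72 on the wild-type ISC array, 4.19 on the LncGata6 mut array and 6.59 on the Ehf-/- array. It was called higher on the wild-type ISC than on the non-ISC array, at least 1.47-fold, and lower on the LncGata6 mut than on the wild-type ISC array, at least 1.32-fold. Its 1.84-fold higher value on the Ehf-/- than on the wild-type ISC array fell short of the call, with a difference of 0.88, although 3 other scalings put it at 1.05 to 1.17. Jchain and Mzb1 were thus called in the same direction in both comparisons of the wild-type ISC array with the non-ISC and LncGata6 mut arrays. Between the LncGata6 mut and non-ISC arrays they differed in direction, Jchain at 1.33 and called, Mzb1 at -0.51 and not called.

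The wild-type ISC array was set against the non-ISC array, from which it differs by label in the GFP gate. The 2 arrays also differed in the hepatocyte and kidney tubule markers, of which 11 lay above the limit on the non-ISC and 0 on the wild-type ISC array. The gate and these cell types cannot be told apart here. Jchain and Mzb1 were higher, 2 of 9 genes where 3.83% of all genes were called higher, and Ighm and Cd79b were lower, 2 of 9 where 7.07% of all genes were. The median difference of the 9 was -0.69, beside -0.11 over all genes, and ranged from -1.59 for Cd22 to 3.26 for Jchain. Apart from Jchain and Mzb1, every gene lay below 0 except Cd79a at 0.16.

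For the LncGata6 mutation, the LncGata6 mut array was set against the wild-type ISC array. None of the 9 genes was called higher, where 2.81% of all genes were, and Jchain and Mzb1 were lower, where 3.02% of all genes were. The 7 other genes differed by between -0.43 and 0.34. The median of the 9 was -0.30, beside -0.06 over all genes.

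For the Ehf-/- genotype, the Ehf-/- array was set against the same wild-type ISC array, so both mutant comparisons share that array. Ighm, Cd79b, Ms4a1, Cd22, Blk and Cd79a were higher, 6 of 9 where 2.59% of all genes were called higher, and 0 of 9 were lower where 5.29% of all genes were. The median difference was 1.64, beside -0.20 over all genes. Of the 3 genes not called, Mzb1 and Pax5 had differences of 0.88 and 0.69 and Jchain one of -0.60.

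Between the mutant arrays, 8 of 9 genes were higher on the Ehf-/- than on the LncGata6 mut array, all but Pax5 at 0.99, where 3.47% of all genes were higher, and 0 were lower where 6.16% were. The median difference was 2.35, beside -0.13 over all genes, and Jchain (2.51-fold) and Mzb1 (at least 2.43-fold) were among the 8. Each mutant array can also be set against the non-ISC array, from which it differs by label in genotype and in the GFP gate together. Each differs from the non-ISC array in the hepatocyte and kidney tubule markers as well. The LncGata6 mut array had Jchain higher, 2.52-fold, as 1 of 9 where 3.66% of all genes were, and Ighm and Cd79b lower, where 6.87% were. The Ehf-/- array had 7 of 9 higher, all but Blk and Pax5, where 3.01% of all genes were, and 0 lower where 9.83% were. Their medians were -0.79 and 1.90, beside -0.16 and -0.29 over all genes.

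**Figure D2:**
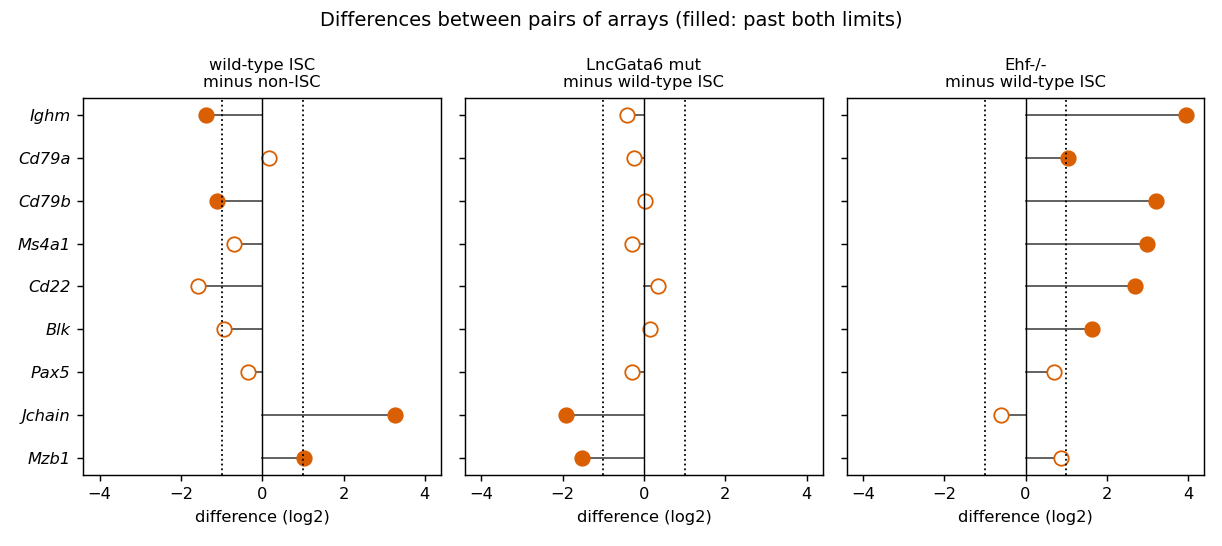
Horizontal axes give the log2 difference between 2 arrays for each of the 9 genes, in 3 panels for 3 comparisons; dotted lines mark -1 and 1, and filled points passed the limits on size and level. Jchain and Mzb1 lie right of 0 in the first panel and left of it in the second, and in the third Ighm (3.94), Cd79b (3.20) and Ms4a1 (2.99) lie farthest right while Jchain lies at -0.60.

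The immunoglobulin variable segments, the gene pieces of which a rearranged antibody chain uses 1 each, were, like Jchain, bright on the wild-type ISC and Ehf-/- arrays and dimmer on the other 2. Of heavy chain segments (Ighv), 117 were measured, and of kappa light chain segments (Igkv), 86. The median Ighv segment was at 5.25 on the non-ISC array, 8.03 on the wild-type ISC array, 6.17 on the LncGata6 mut array and 8.28 on the Ehf-/- array, and the median Igkv segment at 4.91, 8.33, 5.70 and 7.96. At or above the control limits were 62, 94, 71 and 99 of the Ighv segments and 37, 68, 51 and 71 of the Igkv segments. The non-ISC array held the lowest value of 99 Ighv and 72 Igkv segments, and the wild-type ISC and Ehf-/- arrays together held nearly all the highest values (49 and 65 for Ighv, 56 and 28 for Igkv). Segments of 1 family are near-identical and can share probes, so a single segment's value is uncertain and segments are not independent readings.

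Against the non-ISC array, 99 Ighv and 70 Igkv segments were higher on the wild-type ISC array and 0 were lower, with median differences of 2.64 and 3.11. On the LncGata6 mut array 97 Ighv and 70 Igkv segments were lower than on the wild-type ISC array and 0 were higher, with medians of -1.84 and -2.08. The LncGata6 mut array still had 33 Ighv and 31 Igkv segments higher than the non-ISC array and 0 lower. On the Ehf-/- array 100 Ighv and 72 Igkv segments were higher than on the non-ISC array, and 99 and 66 higher than on the LncGata6 mut array, with 0 lower. Between the Ehf-/- and wild-type ISC arrays, by contrast, the medians were 0.07 and -0.16, with 6 Ighv segments higher and 3 lower, and 6 Igkv higher and 2 lower. Over all genes, 2.59% were called higher and 5.29% lower between these 2 arrays. So few called segments are not read as a result about the segments. Under cyclic loess scaling the higher segment counts there became 18 and 11. In the other comparisons the shares of all genes called higher or lower were 2.81% to 9.83%.

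A few segments departed from the rest, and they were picked out after their values were seen. Ighv3-5 was at 4.57, 4.33 and 3.10 on the non-ISC, wild-type ISC and LncGata6 mut arrays, all under the control limits, and at 11.00 on the Ehf-/- array. Igkv13-85 read 3.23, 6.81, 5.20 and 10.04. Ighv11-1 read 3.90, 3.16, 2.19 and 6.60, and Ighv11-2 read 3.10, 3.40, 2.43 and 5.62, so both measured segments named Ighv11 passed a control limit on the Ehf-/- array alone. In the other direction, Ighv1-81 was at 8.35 on the wild-type ISC and 6.82 on the Ehf-/- array, and Igkv12-98 at 8.19 and 6.89. Ighv3-5, Ighv11-1 and Ighv11-2 thus passed the control limit on the Ehf-/- array and not on the wild-type ISC array. Ighv1-81, Igkv12-98 and Igkv13-85 passed it on both arrays, at different levels. The medians of these 2 arrays were close. Each of these readings is 1 uncertain value per array, so no wider difference between the arrays is drawn from them.

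**Figure D3:**
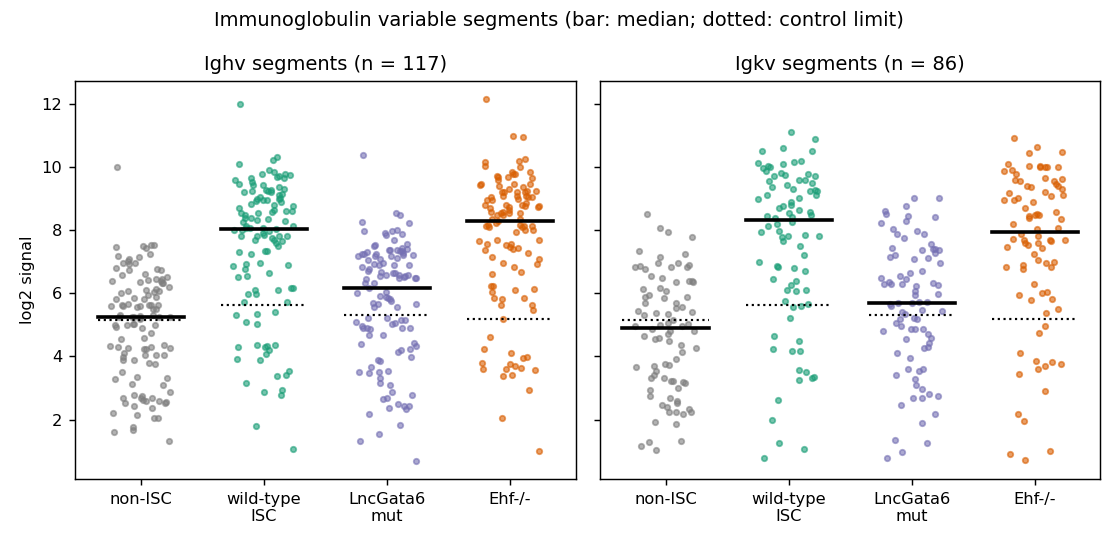
Each point is 1 immunoglobulin variable segment, with log2 signal on the vertical axis and the 4 arrays along the horizontal axis, for 117 heavy chain and 86 kappa segments; bars are medians, dotted lines are control limits, and sideways scatter carries no value. Medians are 8.03 and 8.28 for heavy chain segments on the wild-type ISC and Ehf-/- arrays, against 5.25 on the non-ISC and 6.17 on the LncGata6 mut array.

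Of 13 constant region genes listed, 4 were measured on a feature of their own. Ighg2b, an IgG heavy chain, was at 8.02, 8.95, 8.12 and 10.30 on the non-ISC, wild-type ISC, LncGata6 mut and Ehf-/- arrays, which put the Ehf-/- array 2.55-fold above the wild-type ISC array. That is the array order of Jchain at the lower end and of Ighm at the upper. Ighg1 (4.01, 5.51, 4.71 and 5.24) passed its control limit on the Ehf-/- array alone, and Ighe (2.52, 2.99, 2.68 and 3.64) on none. The IgA heavy chain Igha, the kappa constant region Igkc and the IgD heavy chain Ighd were not analysed here, since only features with 1 gene symbol were used.

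Beyond the 9, other genes of the receptor complex were read from a list. For this and the later lists, the shares of all genes called on the Ehf-/- against the wild-type ISC array were 2.59% higher and 5.29% lower. On the LncGata6 mut against the wild-type ISC array they were 2.81% and 3.02%, and on the wild-type ISC against the non-ISC array 3.83% and 7.07%. A count of 1 or 2 genes of a short list is not read as a result about that list. Of 18 measured genes of the B cell receptor and its coreceptors, 12 were higher and 0 lower on the Ehf-/- than on the wild-type ISC array, with a median difference of 1.80, and without the members among the 9 it was 7 of 13 with a median of 1.09. The tetraspanin Cd81 ran the other way, at 10.17, 8.91, 7.82 and 8.50, and was not called there. Cr2, the complement receptor CD21 of mature and follicular B cells, was at 4.75, 2.06, 2.26 and 6.39 and at least 1.70-fold higher. Cd37, a tetraspanin of leukocytes, was at 5.84, 4.93, 5.97 and 7.57 and at least 3.86-fold higher. Cd180 and its partner Ly86, a Toll-like receptor complex of B cells and myeloid cells, were at least 2.57-fold and at least 3.57-fold higher.

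The same list gave 0 higher and 3 lower on the wild-type ISC against the non-ISC array, the 3 being Ighm, Cd81 and Cd79b. On the LncGata6 mut against the wild-type ISC array, Cd5 (4.36, 4.46, 6.84 and 5.35) and Cd37 were higher and Cd81 was lower. Cd5 also stands on the T cell marker list, since T cells carry it more widely than B cells do.

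Of 18 genes that signal below the receptor, 12 were higher and 0 lower on the Ehf-/- than on the wild-type ISC array, with a median of 1.55, or 11 of 17 without Blk. The scaffold Bank1 was at 5.57, 4.09, 4.58 and 7.16, at least 2.91-fold higher, and the adaptor Dok3 at 4.51, 3.04, 3.02 and 6.03, at least 1.32-fold higher. Btk, the kinase whose loss stops B cell development in humans, was at 3.23, 2.80, 2.70 and 5.29, and Prkcb at 4.87, 4.36, 4.93 and 6.46. Several of these genes are shared with other blood cells: Ptpn6 and Vav1 are also on the pan-leukocyte list. Blnk, the linker of the receptor, stood at 4.84, 6.25, 4.41 and 5.69, brightest on the wild-type ISC array as Jchain was, and was at least 2.14-fold higher on the wild-type ISC than on the non-ISC array and at least 1.92-fold lower on the LncGata6 mut array.

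Of 15 B lineage transcription factors measured, 4 were higher and 1 lower on the Ehf-/- than on the wild-type ISC array, with a median of 0.65. Ikzf1, a factor of all lymphocytes, was at 4.70, 4.15, 5.75 and 6.84, at least 2.33-fold higher. Spi1, which encodes PU.1 and is also a factor of myeloid cells, was at 5.60, 5.26, 5.09 and 7.71, at least 4.26-fold higher. Pou2af1, the octamer coactivator of B cells, was at 5.05, 5.63, 4.89 and 6.74, 2.15-fold higher. The lower gene was Id3, at 5.57 on the wild-type ISC and 3.86 on the Ehf-/- array, with both values under the control limits. The early factor Ebf1 was at 5.03, 4.85, 3.60 and 5.40, above its control limit on the Ehf-/- array alone.

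Few genes of B cell precursors reached the limits. Of 10 measured genes of early B cells and recombination, 0 reached the control limit on the non-ISC array and 1 did on each of the other 3 arrays. The surrogate light chain Vpreb1 was at 3.25, 3.67, 3.92 and 3.45, and the recombinase Rag1 was not analysed here. On the Ehf-/- against the wild-type ISC array Il7r, also a gene of T and innate lymphoid cells, was higher and Sox4 was lower. Of 7 germinal centre genes, 1 was called higher, Bcl6 at 4.04 and 5.08, with both values under the control limits.

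The plasma cell secretory programme, of which 22 genes were measured with Jchain and Mzb1 among them, had most of its calls in the direction of Jchain between the first 3 arrays. On the wild-type ISC against the non-ISC array 6 were higher and 0 lower, with a median of 0.47: besides Jchain and Mzb1, these were Creld2 (2.19-fold), Xbp1 (2.16-fold), Sec11c and Slamf7. On the LncGata6 mut against the wild-type ISC array 5 were lower, among them Txndc5 (2.28-fold) and Hsp90b1 (2.08-fold), 2 chaperones of the endoplasmic reticulum, and Ell2 and Prdm1 were higher. Under cyclic loess scaling the lower count was 3. As deposited, the 5 lower genes included Jchain and Mzb1. Without these members 3 of 20 were lower and 2 higher, with a median of -0.42. Many of these chaperones serve every secretory cell, the epithelium included.

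Between the Ehf-/- and wild-type ISC arrays, 0 of the 22 were higher and Dnajb9 and Herpud1 were lower, with a median of -0.52, while under each of 3 other scalings 1 was higher and 0 were lower. The plasma cell factors read as follows. Xbp1, the transcription factor of secretion, was at 6.69, 7.80, 6.90 and 7.19, and Irf4 at 3.89, 4.87, 4.52 and 5.42. Prdm1, which encodes BLIMP1 and is also active in T cells and gut epithelium, was at 3.05, 4.69, 6.13 and 4.16. The surface marker Sdc1 was at 5.46, 5.32, 4.82 and 4.37, above a control limit on the non-ISC array alone. Tnfrsf17, the survival receptor BCMA of plasma cells, was under the limits on all 4 arrays (2.78, 4.30, 3.33 and 3.45), as was Derl3 (4.66, 4.99, 4.36 and 4.63).

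Of 13 homing and survival receptors, 2 were higher and 0 lower on the Ehf-/- than on the wild-type ISC array. Cxcr5, which draws B cells to follicles, was at 3.94, 2.92, 2.92 and 5.57, and Cxcr4, a chemokine receptor of many leukocytes, at 4.89, 6.45, 5.59 and 7.83 (2.59-fold). On the gut side, of 8 genes of IgA transport and B cell support, 2 were lower and 0 higher on the Ehf-/- than on the wild-type ISC array. Pigr was at 9.35, 10.47, 10.64 and 3.53, at least 38.9-fold lower, and Ccl28, an epithelial chemokine that attracts IgA plasma cells, at 4.50, 6.85, 5.57 and 2.70, at least 3.16-fold lower. Both are epithelial genes, and the epithelial markers were under the limit on that array too. Of 12 antigen presentation genes, 2 were called higher there, Cd86 and H2-Ob, with both values of each under the control limits.

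Over the 4 arrays, the 5 genes whose pattern lay nearest to the mean pattern of the 9 were Tifab, Fam111a, Irak3, Syk and Glipr2. The measure was the Euclidean distance between log2 values centred on each gene's own mean, over the 4 arrays, searched among 10389 genes bright enough to be called on at least 1 array. The distances were 0.100 for Tifab (3.01, 2.80, 2.47 and 4.72), 0.170 for Fam111a, 0.212 for Irak3, 0.217 for the receptor kinase Syk (4.76, 4.58, 4.09 and 6.15) and 0.244 for Glipr2. Tifab was under the control limit on all 4 arrays. The 9 genes themselves lay farther from their own mean, between 0.768 for Cd79a and 2.54 for Jchain, so that mean describes no single one of them closely.

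Markers of other cell types also differed between the arrays, and their part in the results was not tested. Of 10 pan-leukocyte markers, 9 were higher and 0 lower on the Ehf-/- than on the wild-type ISC array (median 2.12), and 5 were higher on the LncGata6 mut array (median 0.92). Ptprc, which encodes the leukocyte antigen CD45, was at 6.25, 5.72, 7.80 and 8.41, 6.44-fold higher on the Ehf-/- and 4.24-fold higher on the LncGata6 mut array. The summed linear signal of the 10 was 491, 400, 977 and 2419.

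All 12 neutrophil markers were higher on the Ehf-/- than on the wild-type ISC array, with summed signals of 806, 80.1, 88.5 and 11976 on the 4 arrays, and 0 of 12 reached the control limit on the wild-type ISC or LncGata6 mut array. S100a8, which encodes a neutrophil protein, was at 7.87, 1.51, 1.24 and 11.44. Of 14 macrophage and dendritic markers 11 were higher on the Ehf-/- array (median 1.99), as were 4 of 4 erythroid markers (median 3.64). Of 13 T cell markers 11 were higher on the LncGata6 mut than on the wild-type ISC array (median 3.65), with summed signals of 558, 404, 6147 and 584, and Cd3e was at 5.60, 5.06, 8.71 and 6.69. On the Ehf-/- against the wild-type ISC array 7 of the 13 T cell markers were higher and 2 lower (median 1.07), and 8 reached the control limit on the Ehf-/- array.

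Genes shared by B cells and plasmacytoid dendritic cells were also read. Of 10 plasmacytoid dendritic markers, 2 were higher on the Ehf-/- array, among them Ly6d, which B cell precursors also carry, at 5.21, 4.87, 4.89 and 7.97. Siglech, the defining surface marker of those cells, was under the limits on all 4 arrays (3.11, 2.69, 2.92 and 2.95). Of 9 markers of natural killer and innate lymphoid cells, 1 was higher on the Ehf-/- and 1 on the LncGata6 mut array, each against the wild-type ISC array.

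The B cell marker list itself, with 6 measured genes, had medians of 4.82, 4.44, 4.14 and 6.24, and 2, 0, 0 and 4 of the 6 reached the control limit. It is not a separate reading, since Ms4a1, Cd79a, Cd79b and Pax5 are on it. Without them 2 genes remained, of which 1 was higher on the Ehf-/- than on the wild-type ISC array. The plasma cell list, with 7 measured genes that include Jchain and Mzb1, had medians of 4.66, 4.99, 4.52 and 4.63, and 2, 2, 2 and 3 reached the limit. On the wild-type ISC array no gene of the B cell list stood above the limit, and of the plasma cell list only Jchain and Mzb1 did. The other 5 measured plasma cell markers were under it there. Ighm, which is on neither list, was above the limit there at 6.54. Of epithelial markers, 14 of 14 were lower on the Ehf-/- than on the wild-type ISC array (median -4.89), with Epcam at 7.22, 9.70, 10.65 and 3.78.

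**Figure D4:**
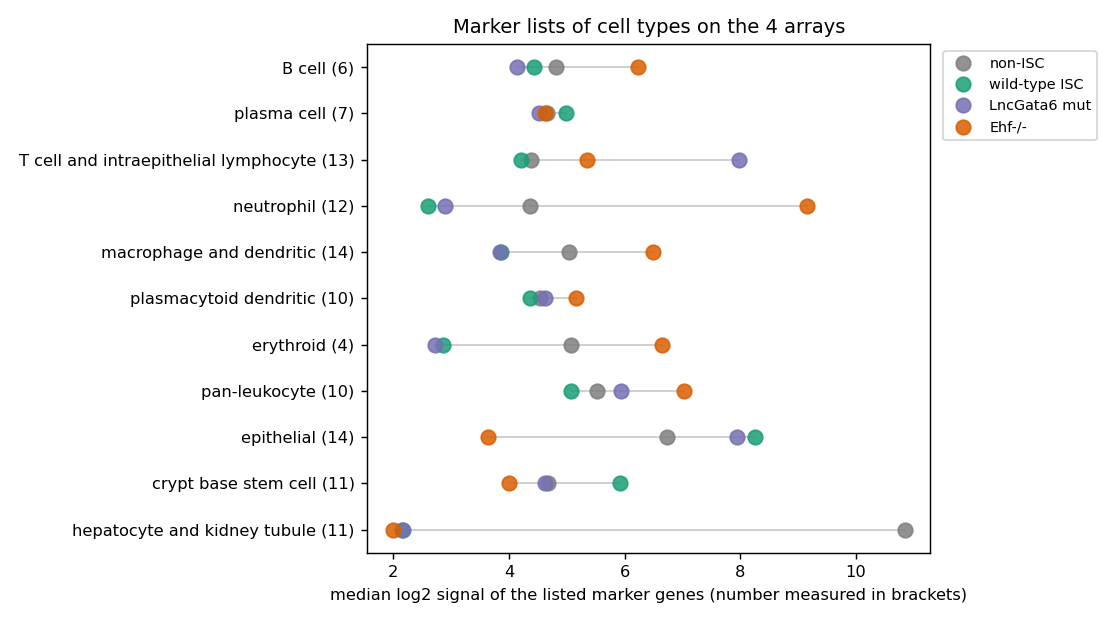
The horizontal axis gives the median log2 signal of each marker list on each array, with the number of genes measured in brackets; a point is 1 array. The B cell list is highest on the Ehf-/- array (6.24), where the neutrophil list is also highest (9.15) and the epithelial list lowest (3.63), and the T cell list is highest on the LncGata6 mut array (7.97). The B cell and plasma cell lists share genes with the 9.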

How the data were processed

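Total RNA of sorted small intestinal cells, extracted with Trizol per the labels' protocols, was read on 4 arrays. The authors' deposited table holds 1 value per feature on the log2 scale. The submitters' processing notes name RMA and Affymetrix Power Tools; their versions are not given in the sources used here. This method subtracts background, equalises arrays and summarises probes, which compresses differences of dim features. Array medians over named features were 3.24 to 3.54, so the arrays do not share 1 distribution.

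Of 72688 features, 31258 had 1 symbol after 1789 symbols were updated through RefSeq, 1492 had several and 39938 were unnamed here. For the 441 genes with several features, the feature with the highest mean was used. With 1 array per group, no test was possible, and precision is limited by that number. Calls and folds were made as stated in the results, in Python 3.11.15 with pandas 2.3.3. The calling rule was tested on simulated data, and the folds were not. Alternatives were median centring, quantile normalization and cyclic loess (limma 3.58.1), other level and size limits and the median of a gene's features.

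The 9 genes, 10 gene lists and 12 marker lists were chosen with earlier results of these data known. The text names the 9 genes, up to 4 called genes of each list and comparison by size, defining markers whether called or not, genes that ran against their list, and the 5 nearest patterns. Single segments were picked after seeing their values.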

Additional observations from a re-analysis of the deposited data

How the results depend on the processing

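No call among the 9 genes reversed under any alternative run, and no member's call changed with the control limit as the level limit or with the median of a gene's features. Between the wild-type ISC and non-ISC arrays, the count of lower genes was 1 under median centring and quantile normalization, since Cd79b came to -0.99 and -0.88. Between the LncGata6 mut and non-ISC arrays it was 1 under median centring, quantile normalization and cyclic loess, with Cd79b at -0.94, -0.79 and -0.88. Mzb1 became higher on the Ehf-/- than on the wild-type ISC array under those 3 scalings (1.05, 1.13 and 1.17), as did Pax5 against the LncGata6 mut array (1.16, 1.26 and 1.23). Pax5 (1.02, quantile) against the wild-type ISC array and Blk (1.21, quantile; 1.05, cyclic loess) against the non-ISC array also became higher on the Ehf-/- array. Without a level limit, Cd22 became lower on the wild-type ISC (-1.59) and LncGata6 mut (-1.25) arrays than on the non-ISC array. With a 4-fold limit (a difference of at least 2), the wild-type ISC against the non-ISC array had 1 higher and 0 lower, the LncGata6 mut 0 lower against the wild-type ISC and 0 higher and 0 lower against the non-ISC array, and the Ehf-/- 5 higher against the LncGata6 mut and 4 against the non-ISC array. Against the wild-type ISC array, the Ehf-/- array lost the calls of Cd79a (1.04) and Blk (1.64) at that limit. The share of all genes called at the 4-fold limit is not given beside these counts. Scaling removed shifts of the median of all genes of up to 0.29 and raised the share of calls that were higher, from 32.9% to 43.3% (median centring), 49.7% (quantile) and 49.4% (cyclic loess) between the Ehf-/- and wild-type ISC arrays, and from 35.1% to 48.2% (quantile) between the wild-type ISC and non-ISC arrays. Of the lists, on the Ehf-/- against the wild-type ISC array, higher Ighv segments went from 6 to 12, 14 and 18 under median centring, quantile and cyclic loess scaling, and higher Igkv segments from 6 to 10 (quantile) and 11 (cyclic loess). With the control limit as level limit, higher erythroid markers went from 4 to 2 and antigen presentation genes from 2 to 0 there. Without a level limit, lower genes of IgA transport went from 2 to 4 there, and lower receptor and coreceptor genes from 3 to 6 on the wild-type ISC against the non-ISC array. With the 4-fold limit, lower segments on the LncGata6 mut against the wild-type ISC array went from 97 to 39 (Ighv) and from 70 to 44 (Igkv), and higher receptor signalling genes on the Ehf-/- against the wild-type ISC array from 12 to 5. Signals near the control limit bound the folds of Cd79a, Cd22 and Blk. No replicate could be left out, and no paired analysis was possible because each group has 1 array.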
